A study of Mus musculus with 4 samples.

Results

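The 9 mouse genes described here encode the core machinery that divides and joins mitochondria, and were followed in pachytene spermatocytes, germ cells in the long meiotic stage at which homologous chromosomes are synapsed. They were taken by gene symbol from the 15733 protein-coding genes of the deposited table. They are Dnm1l, Mff, Fis1, Mief1 and Mief2 on the side of division, Mfn1, Mfn2 and Opa1 on the side of fusion, and Oma1, whose protease cuts the OPA1 protein. Dnm1l was picked because its counts about doubled in the comparison made here, so its difference is given as a description with no test. The other 8 were taken for their function.

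Suspensions of single testicular cells from mice were kept ex vivo for 12 h with 2.5 µM BMH21, a DNA intercalator that inhibits RNA polymerase I, or with the solvent DMSO (mock). Pachytene cells were isolated by sorting on Hoechst, a DNA stain, and sequenced with a stranded mRNA library kit. There were 2 libraries per group, called biological replicates in the labels, which do not say whether they came from separate animals. The labels name no strain, genotype or age, and the drug met every cell type of the suspension before the sort.

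Mitochondria divide when the cytosolic GTPase DRP1, the product of Dnm1l, is recruited to their outer membrane by the adaptors MFF, MIEF1 and MIEF2, with FIS1 as a further outer-membrane protein of this process, and assembles into a constricting ring. They fuse when the GTPases MFN1 and MFN2 join outer membranes and OPA1 joins inner membranes. In mouse spermatocytes mitochondria gather in clusters around the electron-dense germ granule material, and the mitofusins are needed in mouse male germ cells for normal spermatogenesis.

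The libraries held 30964370 to 41548269 counts. All 9 genes passed the filter on low counts. CPM are normalised read counts, with library sizes scaled by the TMM method. The 11 measured pachytene markers summed to 9035 and 9212 CPM in mock and 9397 and 9565 CPM in BMH21. Ldhc stood at 4375 and Adam3 at 1488 CPM in mock. In edgeR 5 of the 11 were called higher and 2 lower, beside 16.5% and 12.5% of all genes tested. Among the called, the synapsis genes Sycp1, Hormad1 and Sycp3 rose by 0.27, 0.33 and 0.46 on the log2 scale, Ldhc and Adam3 by 0.08 and 0.06, and Piwil1 and Ccna1 fell by 0.16 and 0.15. The 9 spermatid markers summed to 301 to 302 CPM in mock and 317 to 318 in BMH21, led in mock by Akap4 (64.9) and Prm2 (64.1), and the smallest adjusted p among them was that of Akap4 (edgeR, 0.0590). Spermatogonial markers (7 of 8 measured) summed to 57.0 and 57.1 CPM in mock and 50.2 and 51.0 in BMH21. Kit and Zbtb16 were the 2 called lower, with log2 fold changes of -0.58 and -0.95. The most abundant in mock, Id4 at 38.4 and Gfra1 at 8.54, were not called (edgeR adjusted p = 0.205 and 0.886). Nanos3 had a log2 fold change of 0.25 and was not called either. Sertoli markers (2 of 8 measured, Amh and Clu) summed to 0.918 to 2.48 CPM. Leydig markers (3 of 6 measured) summed to 9.13 and 9.54 CPM in mock and to 6.49 and 7.26 in BMH21 without overlap. Star made up most of this sum, at 8.97 CPM in mock, and fell by 0.50 on the log2 scale (edgeR adjusted p = 0.00785). Insl3, next in level, was at 0.236 CPM in mock and was not called (log2 fold change 1.03, edgeR adjusted p = 0.337). Peritubular or endothelial markers (6 of 6 measured, led by Tagln and Vwf) summed to 7.10 to 10.02 CPM and macrophage or blood markers (5 of 7 measured, led by Csf1r and Ptprc) to 6.05 to 7.49. No measured marker was at 0 in every library. The part of these shifts in the results below was not tested, and fewer cells of a type cannot be told apart from less RNA per cell.

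Upstream sequences were taken from RefSeq (GRCm38.p6), which matched all 9 genes. They are shown because 3 of the 9 genes carry the same ETS-family motif close to their start and 1 carries a motif of NRF1. The sequence of Dnm1l is shown beside them as 1 of the 5 genes with neither motif, the others being Mff, Mfn2, Mief2 and Oma1. ETS factors (such as GABPA) and NRF1 are known as activators of nuclear genes for mitochondrial proteins. Capitals mark the motifs CCGGAAGT (ETS family), GCATGCGC (NRF1) and CCAAT (bound by NF-Y), searched on both strands in the 250 bases before each RefSeq start. The 2 NRF1 matches of Opa1 overlap, 1 on each strand of a palindrome. Each run ends at or near the annotated start of its gene.
Dnm1l (chr16:16359032-16359281, minus strand): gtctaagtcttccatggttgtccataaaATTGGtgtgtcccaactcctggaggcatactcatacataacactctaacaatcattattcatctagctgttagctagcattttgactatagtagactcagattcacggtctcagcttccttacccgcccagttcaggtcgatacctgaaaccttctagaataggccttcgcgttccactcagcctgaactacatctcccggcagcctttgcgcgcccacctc
Mief1 (chr15:80233923-80234022, plus strand): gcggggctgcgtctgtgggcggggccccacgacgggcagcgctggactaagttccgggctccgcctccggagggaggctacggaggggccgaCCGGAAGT
Fis1 (chr5:136953175-136953274, plus strand): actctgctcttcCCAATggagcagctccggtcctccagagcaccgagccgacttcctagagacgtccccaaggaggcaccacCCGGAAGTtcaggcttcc
Mfn1 (chr3:32529365-32529464, plus strand): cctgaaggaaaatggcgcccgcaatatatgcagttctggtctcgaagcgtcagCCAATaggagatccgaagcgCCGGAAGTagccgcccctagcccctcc
Opa1 (chr16:29579234-29579333, plus strand): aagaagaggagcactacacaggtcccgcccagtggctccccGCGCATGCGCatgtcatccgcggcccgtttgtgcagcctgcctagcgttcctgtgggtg

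The ETS motif began 65 bases before the RefSeq start of Mief1, 44 before that of Mfn1 and 18 before that of Fis1. In Mief1 it lies across the start of the gene in GENCODE. Of all 27025 RefSeq genes with such a window, 3.23% held it. The NRF1 motif, found in Opa1, was held by 2.56% of genes. CCAAT was found in 6 of the 9 genes (Dnm1l, Fis1, Mff, Mfn1, Mief2 and Opa1) and in 37.5% of all genes. The CREB/ATF motif TGACGTCA was found in 0 of the 9 and in 1.77% of all genes. In Dnm1l the only match lay 222 bases before the RefSeq start whose sequence is shown. RefSeq also holds another start of Dnm1l, inside the GENCODE gene, whose window held no match and is not shown. The shares of all genes include genes not expressed here, and a gene counts if any of its windows held the motif. No share was taken over expressed genes alone. A match is a run of letters and was not tested as a binding site.

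Dnm1l encodes the GTPase that constricts mitochondria and peroxisomes. Its locus lies on chromosome 16 (ENSMUSG00000022789.16, 16312230 to 16358959 on GRCm38, minus strand) and has 7 annotated transcripts, which gene counts cannot separate. Dnm1l stood at 32.1 and 36.4 CPM in mock and at 74.2 and 71.7 CPM in BMH21. The BMH21 libraries were both above the mock libraries, and any BMH21 library was 1.97 to 2.31 times any mock library. The mock mean was 34.3 ± 3.07 CPM and the BMH21 mean 72.9 ± 1.78 CPM (SD, n = 2), which is 2.14-fold, or 1.09 on the log2 scale. The mock libraries themselves differed, replicate 1 being 0.881 times replicate 2. Of the 13793 genes tested, 4.98% had a log2 fold change of at least 1. An annotated antisense gene, Gm49521, shares 243 bases with Dnm1l exons. Whether counting used the strand is not stated in the labels, and without it reads of the 2 genes cannot be told apart. The same holds for other opposite-strand overlaps, not all of which are named below. Called genes with such overlaps include Slc25a46, Bnip3, Usp30, Polg, Twnk and Pprc1.

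**Figure D1:**
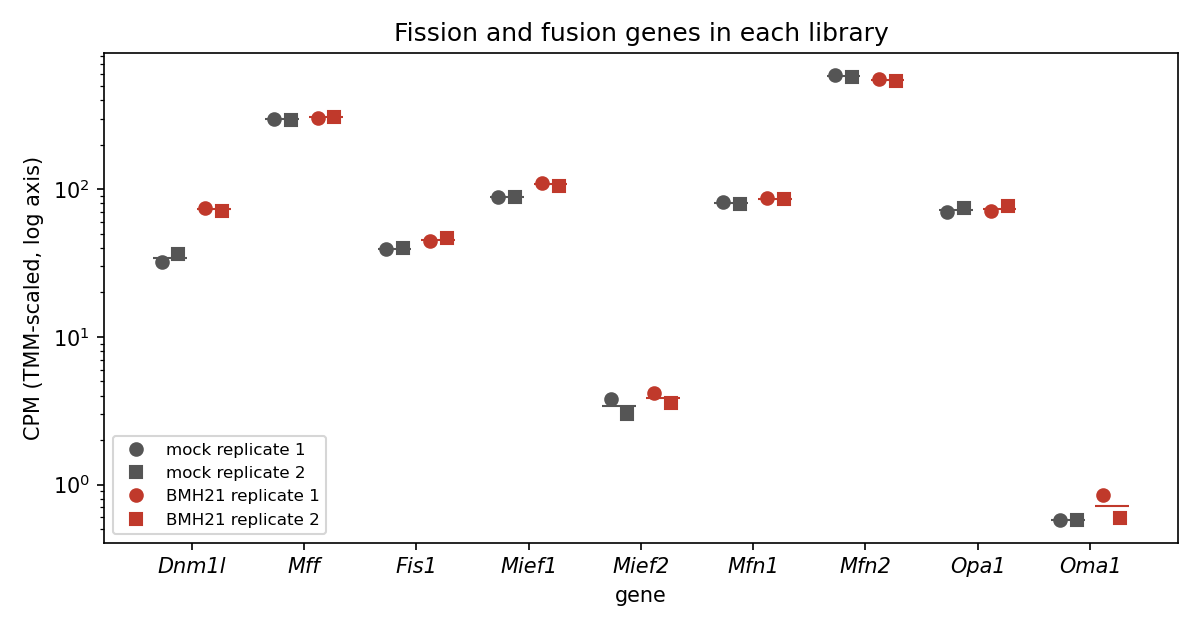
Expression of the 9 genes in CPM (TMM-scaled, log axis) in each of the 4 libraries; circles are replicate 1, squares replicate 2, grey is mock, red is BMH21, and lines are group means. Dnm1l is at 32.1 and 36.4 CPM in mock and 74.2 and 71.7 in BMH21, while the other genes lie close to their mock level.

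Of the other 8 genes, 2 were called higher (Mief1 and Fis1) and 1 lower (Mfn2) at an adjusted p under 0.05 in edgeR's quasi-likelihood test with Benjamini-Hochberg adjustment over all genes tested, against 29.1% of all genes called in either direction, 16.5% higher and 12.5% lower. Since Dnm1l was chosen in this comparison, nothing is read from this share. DESeq2 called 1 higher (Mief1) and 1 lower (Mfn2), against 21.7% of all genes that it called in either direction. The ranges of the groups did not overlap for 5 genes with higher and 1 gene with lower BMH21 values, where 60.9% of all genes had groups that did not overlap, 30.9% with higher and 29.9% with lower BMH21 values. The called differences among the 8 ran from 0.942 to 1.21-fold.

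Mief1 encodes an adaptor that recruits DRP1 to the outer membrane and binds ADP. Mief1 (ENSMUSG00000022412.15, chromosome 15, 80234018 to 80253371, plus strand) was at 89.2 and 88.8 CPM in mock and at 109.5 and 106 CPM in BMH21. Both BMH21 libraries were higher than both mock libraries, by far more than replicates differed. Mief1 rose by 0.27 ± 0.05 (SE) on the log2 scale, or 1.21-fold with an approximate 95% interval of 1.14 to 1.29 (edgeR adjusted p = 2.09e-06). The call held under all 11 alternatives, with log2 fold changes from 0.23 to 0.30. A listed gene, Gm55359, shares 213 bases of exon with Mief1 on the same strand. Gm55359 had 186 to 293 counts per library and a log2 fold change of 0.18 ± 0.16 (SE, edgeR adjusted p = 0.453).

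Fis1 encodes a small outer-membrane protein that takes part in mitochondrial and peroxisomal division. Fis1 (ENSMUSG00000019054.14, chromosome 5, 136953275 to 136966234, plus strand) stood at 39.4 and 39.6 CPM in mock and at 44.3 and 46.5 CPM in BMH21. The groups did not overlap. Fis1 rose by 0.20 ± 0.07 (SE) on the log2 scale, or 1.15-fold with an interval of 1.05 to 1.26 (edgeR adjusted p = 0.0222). It lost its call in 5 of 11 alternatives, which were DESeq2 (adjusted p = 0.0698), upper quartile scaling (0.0847) and the removal of a single library, namely replicate 1 of mock (0.102), replicate 2 of mock (0.0766) or replicate 2 of BMH21 (0.188). The adjusted p ran from 0.0171 to 0.188.

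Mff encodes the adaptor on which most DRP1 recruitment to mitochondria is known to depend, and it was the most abundant gene of the division side. Mff (ENSMUSG00000026150.15, chromosome 1, 82724890 to 82752394, plus strand) was at 298 and 296 CPM in mock and at 305 and 310 CPM in BMH21. The BMH21 values were the higher ones in both libraries, but the log2 fold change was 0.05 ± 0.03 (SE) and did not pass the test (edgeR adjusted p = 0.216). The interval of the fold was 0.995 to 1.08. An unlisted gene on the opposite strand, C430014B12Rik, shares part of its exons.

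Mief2, a paralog of Mief1 that also recruits DRP1, was weakly expressed. Mief2 (ENSMUSG00000018599.6, chromosome 11, 60728398 to 60732951, plus strand) had 158 and 94 counts in mock and 137 and 132 in BMH21, or 3.77 and 3.01 against 4.14 and 3.56 CPM. The groups overlapped. The log2 fold change of 0.17 ± 0.22 (SE) did not pass the test (edgeR adjusted p = 0.624), and the interval, 0.838 to 1.52-fold, does not exclude a change as large as that of Mief1.

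**Figure D2:**
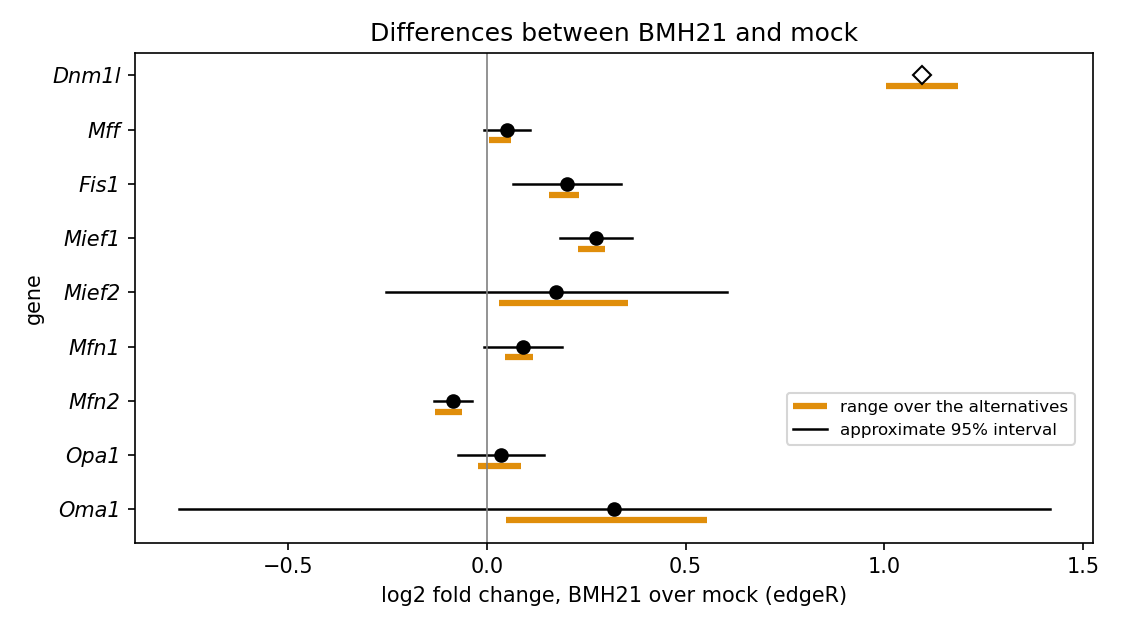
Log2 fold change of BMH21 over mock for the 9 genes, with black lines for the approximate 95% interval and orange lines for the range over the alternative settings. The open diamond is Dnm1l (1.09), given without an interval because it was chosen for this value; Mief1 and Fis1 lie above 0 and Mfn2 below.

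On the fusion side, Mfn2 encodes an outer-membrane GTPase that also tethers mitochondria to the endoplasmic reticulum. Mfn2 (ENSMUSG00000029020.14, chromosome 4, 147873599 to 147904704, minus strand) was the most abundant of the 9, at 590.5 and 574 CPM in mock and 554 and 544 CPM in BMH21. Both BMH21 libraries were below both mock libraries. Mfn2 fell by 0.09 ± 0.02 (SE) on the log2 scale (edgeR adjusted p = 0.00510). That is 0.942 of its mock level, with an interval of 0.911 to 0.975. Across tested genes averaging at least 10 CPM the median absolute log2 fold change was 0.11, larger than that of Mfn2. The call held in 10 of 11 alternatives, with adjusted p from 7.96e-06 to 0.234. It was lost without mock replicate 1, where the log2 fold change was -0.06 and the adjusted p was 0.234.

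Mfn1 encodes the other mitofusin, which has the higher GTPase activity of the pair. Mfn1 (ENSMUSG00000027668.14, chromosome 3, 32529465 to 32579239, plus strand) was at 82.3 and 79.8 CPM in mock and at 87.1 and 85.6 CPM in BMH21. The BMH21 values were higher without overlap, but the log2 fold change of 0.09 ± 0.05 (SE) did not pass the test (edgeR adjusted p = 0.184, interval of the fold 0.995 to 1.14). The level of Mfn2 per kb of exon was 8.45 and 8.47 times that of Mfn1 in the mock libraries and 7.48 times in each BMH21 library. These 4 ratios differed between groups by more than between replicates, and with 2 libraries a group no permutation test of a single ratio could fall under 0.05.

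Opa1 encodes the inner-membrane fusion GTPase, which also keeps cristae closed. Opa1 (ENSMUSG00000038084.17, chromosome 16, 29579334 to 29654884, plus strand) was at 69.8 and 74.0 CPM in mock and at 70.8 and 76.3 CPM in BMH21. The groups overlapped, and replicates differed by more than the group means. The log2 fold change was 0.04 ± 0.05 (SE, edgeR adjusted p = 0.705), with an interval of 0.951 to 1.10-fold, so a change of the size of Dnm1l lay outside it. Opa1 shares chromosome 16 with Dnm1l.

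Oma1 encodes the inner-membrane metalloprotease that cleaves OPA1 when mitochondria are under stress. Oma1 (ENSMUSG00000035069.4, chromosome 4, 103313812 to 103371868, plus strand) had 24 and 18 counts in mock and 28 and 22 in BMH21, or 0.572 and 0.576 against 0.845 and 0.594 CPM. At this depth counting error alone is 20.9% of the mean count, and the interval of the fold, 0.584 to 2.67, holds a doubling. No difference was detectable (log2 fold change 0.32 ± 0.56 (SE), edgeR adjusted p = 0.742). The log2 fold change was 0.05 without BMH21 replicate 1 and 0.55 without BMH21 replicate 2. Yme1l1, the other protease that cuts OPA1, was at 147 and 149 CPM in mock and at 156 and 157 CPM in BMH21 (log2 fold change 0.08, edgeR adjusted p = 0.102).

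Set side by side per kb of merged exon, the 9 genes spanned from 0.268 (Oma1) to 112 CPM per kb (Mfn2) in mock. Mfn2 lay above 96.8% of all tested genes on this scale, Mff above 86.1% and Dnm1l above 61.2%. In mock the order was Mfn2 (112 ± 2.24), Mff (30.5 ± 0.161), Fis1 (23.1 ± 0.113), Mfn1 (13.3 ± 0.292), Mief1 (11.0 ± 0.0316), Opa1 (9.13 ± 0.380), Dnm1l (6.58 ± 0.589), Mief2 (1.247 ± 0.197) and Oma1 (0.268 ± 0.00131; CPM per kb, SD, n = 2). Each neighbour in that order differed from the next by more than their SDs. These SDs leave out the choice of length. By the longest transcript, Mfn1 and Mief1 were at 17.8 and 17.3 CPM per kb in mock. In BMH21 Dnm1l took the fifth place, at 14.0 ± 0.342 CPM per kb, which did not differ from Mfn1 (14.1 ± 0.175) beyond their spread and lay above Mief1 (13.3 ± 0.320). With the longest transcript as length the order in mock was the same, and in BMH21 Mief1, Mfn1 and Dnm1l followed each other at 20.9, 18.9 and 18.4 CPM per kb.

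**Figure D3:**
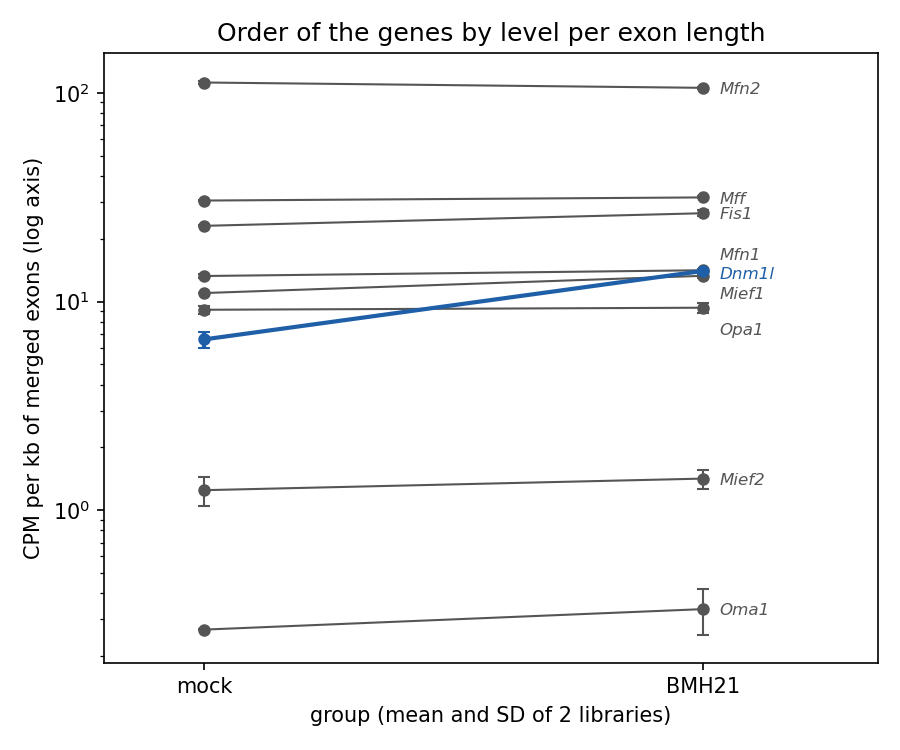
Level of the 9 genes in CPM per kb of merged exons (log axis) in mock and BMH21; points are means of 2 libraries and bars are SDs. Dnm1l (blue) moves from 6.58 to 14.0 CPM per kb, next to Mfn1, and Mfn2 stays on top.

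Dnm1l therefore stood in another proportion to its outer-membrane partners. Per kb of exon its level was 0.0935 and 0.107 times the summed level of Mff, Fis1, Mief1 and Mief2 in the mock libraries and 0.198 and 0.188 times in the BMH21 libraries. These ratios use the value for which Dnm1l was chosen and are a description. The counts of all 9 genes, Dnm1l included, summed to 1206 and 1192 CPM in mock and to 1250 and 1244 CPM in BMH21.

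The genes whose pattern over the 4 libraries lay nearest to that of Dnm1l were Zfp422, Hp1bp3, Sike1, Vps54 and Sc5d, among 7294 candidates (average over 10 CPM, predicted and unnamed gene models left out). Likeness was the Euclidean distance of log2 CPM after subtraction of each gene's mock mean, with no p. The search starts from the values for which Dnm1l was chosen, so the differences of these genes are a description. Zfp422, Sike1 and Sc5d passed the limit on the average only through the BMH21 libraries. Zfp422, a zinc-finger gene, was at distance 0.0452, with a mock mean of 7.55 CPM and a BMH21 mean of 16.4 CPM. Hp1bp3, which encodes a heterochromatin-associated protein, was at 0.120 (11.7 and 14.0 CPM in mock, 29.2 and 28.3 in BMH21). Sike1 (0.123), the endosomal tethering gene Vps54 (0.144) and the sterol synthesis gene Sc5d (0.152) had log2 fold changes of 1.02, 1.18 and 1.01. All 5 lie on other chromosomes than Dnm1l.

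**Figure D4:**
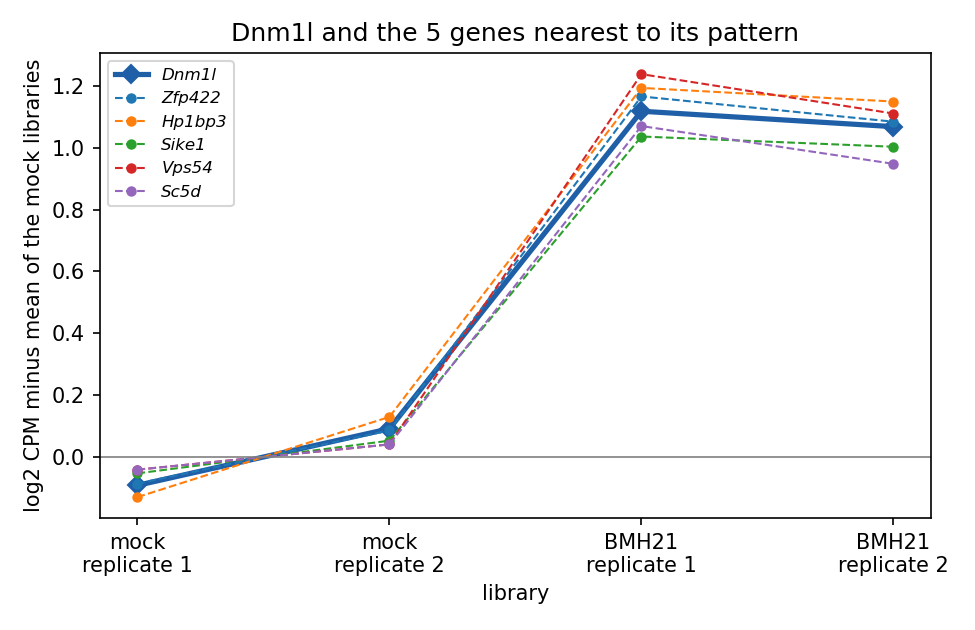
Log2 CPM of Dnm1l (blue diamonds) and of the 5 genes nearest to its pattern in each of the 4 libraries, after subtraction of each gene's mean over the mock libraries; lines join values of 1 gene and imply no order of replicates. In both BMH21 libraries all 6 genes lie about 1 log2 unit above their mock mean.

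The nearest listed genes on both sides of each member were also read. Of these 18 neighbours 15 were tested, and 2 were called, both higher, beside 29.1% of all genes called in either direction. Yars2, which encodes the mitochondrial tyrosyl-tRNA synthetase, ends 2590 bases from the 3′ end of Dnm1l on the opposite strand. Yars2 had means of 4.92 CPM in mock and 7.57 in BMH21, and rose by 0.62 ± 0.17 (SE) on the log2 scale (edgeR adjusted p = 0.00247). Atf4, the gene of a stress-response transcription factor, starts 1813 bases beyond Mief1 on the same strand, and rose from 44.7 to 53.8 CPM (0.27 ± 0.06 (SE), edgeR adjusted p = 8.43e-04).

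Genes that act around the core machinery were read from lists chosen by function. Over 92 such genes tested, 23 rose, 12 fell and 57 were not called in edgeR, so that 38.0% were called, beside 29.1% of all genes. DESeq2 called 14 of them higher and 6 lower, a share near the 21.7% of all genes that it called. The median log2 fold change of the 92 genes was 0.02, against -3e-04 for all tested genes. Under upper quartile scaling, which shifts log2 fold changes by a median of -0.05, 16 rose and 19 fell, and over all genes the split went from 2282 higher and 1731 lower to 1805 and 2480. Of the 35 called genes, 13 held their call under all 11 alternatives.

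Accessory factors of division and fusion went both ways, with 3 higher and 3 lower of 14 tested (median log2 fold change -0.05). Marchf5, the outer-membrane ubiquitin ligase that acts on DRP1 and its partners, was at 16.0 and 19.6 CPM in mock and at 27.4 and 24.5 CPM in BMH21. Both BMH21 libraries were above both mock libraries, and Marchf5 rose by 0.55 ± 0.10 (SE; edgeR adjusted p = 7.54e-06). Slc25a46, an outer-membrane protein whose loss alters mitochondrial shape, went from 46.9 and 46.0 CPM to 37.8 and 36.4 CPM and fell by 0.33 on the log2 scale. Both of these calls held under all 11 alternatives. Miga2, which promotes fusion, fell by 0.71, and Mul1, an outer-membrane ubiquitin ligase, by 0.11. Pld6, the mitochondrial phospholipase that piRNA formation in male germ cells needs, rose by 0.13, and Mtfr1 by 0.10. The last 4 calls were lost in DESeq2. Each was also lost with single libraries left out, Mtfr1 with each of the 4, Pld6 with 3 of 4 (0.07 without BMH21 replicate 1), and Miga2 and Mul1 with 2 of 4. Dnm2, the classical dynamin reported to assist the last step of division, was at 444 and 448 CPM in mock and at 444 and 431 CPM in BMH21.

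Among genes that modify DRP1 or take part in its regulation, 6 of 14 tested were called higher and 0 lower in edgeR (7 and 0 at an unadjusted p under 0.05, 3 and 0 in DESeq2), with a median log2 fold change of 0.12. Cdk1, the cell-cycle kinase that is known to activate DRP1 at mitosis, was at 66.4 and 64.2 CPM in mock and at 79.9 and 87.3 CPM in BMH21. The groups did not overlap, and Cdk1 rose by 0.36 ± 0.05 (SE; edgeR adjusted p = 1.72e-07). Rock1, a protein kinase, rose by 0.24 and Ppp3ca, the catalytic subunit of the DRP1 phosphatase calcineurin, by 0.18, and these 3 calls held under all 11 alternatives. Ppp3r1, the regulatory subunit of calcineurin, rose from a mean of 0.335 to 0.969 CPM, and Prkacb, a catalytic subunit of protein kinase A, rose by 0.95. Ppp3r1 shares exon sequence with Wdr92 on the same strand. Both of these last calls were lost in DESeq2 and with at least 3 of the 4 single libraries left out. Ccnb1, the cyclin partner of Cdk1, averaged 157 CPM in mock and 152 in BMH21, with overlapping groups.

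Of 14 inner-membrane proteases and scaffolds tested, 3 rose and 1 fell. Parl, a rhomboid protease, rose by 0.15, Afg3l2, a subunit of the matrix-facing AAA protease, by 0.16, and the prohibitin gene Phb2, which is also in the mitophagy list, by 0.19. Dele1, which relays OMA1 activity to the stress response in human cells, was at 215 CPM in both mock libraries and at 206 and 197 CPM in BMH21, and fell by 0.09. Each of these 4 calls was lost with at least 1 single library left out, and those of Phb2 and Dele1 also in DESeq2.

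In the complex that shapes cristae junctions, 2 of 12 tested genes rose and 2 fell. Both that rose are X-linked. Apoo went from 0.810 and 0.832 CPM in mock to 5.01 and 4.72 CPM in BMH21, and Apool from 0 and 0.256 CPM to 1.93 and 2.24 CPM. Apoo held its call under all 11 alternatives, and Apool lost it in DESeq2. The X chromosome is known to be silenced at pachytene, and none of the 9 core genes is X-linked. X-linked genes outside these lists also rose, such as Fmr1 and Ddx3x with log2 fold changes of 7.05 and 6.20. How many X-linked genes rose or fell is not reported here. The autosomal genes Mtx3, a metaxin, and Samm50, of the outer-membrane sorting complex, fell by 0.30 and 0.21. Samm50 shares 111 bases of exon with Gm49513 on the same strand. Mtx3 lost its call without mock replicate 1, and Samm50 lost it in DESeq2 and when replicate 1 of either group was left out. Immt, the central organiser of cristae junctions, was at 234 and 242 CPM in mock and at 235 and 239 CPM in BMH21.

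Of 12 genes of mitochondrial transport and mitophagy tested, 4 rose and 1 fell. Rhot1, the outer-membrane GTPase that links mitochondria to motors, rose by 0.14, and Usp30, the deubiquitinase of the outer membrane, by 0.25. Bnip3, a mitophagy receptor, averaged 2.78 CPM in mock and 5.11 in BMH21, a log2 fold change of 0.87 that lost its call without BMH21 replicate 1. Phb2, named above, was the fourth gene that rose. The motor adaptor gene Trak1 fell by 0.22. Pink1, the kinase that marks damaged mitochondria, was at 368 and 365 CPM in mock and at 376 and 368 CPM in BMH21, and the BMH21 replicates differed by more than the group means did (log2 fold change 0.02, edgeR adjusted p = 0.597).

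Of 8 other dynamin-superfamily genes tested, 1 rose and 1 fell. Atl1, whose protein fuses tubules of the endoplasmic reticulum, rose from 153 and 152 CPM to 189 and 191 CPM, by 0.32 on the log2 scale, and Dnm3 fell by 0.32. Atl1 exons overlap those of Map4k5 and Sav1 on the opposite strand, and Dnm3 exons those of an annotated antisense gene. Peroxisomes are divided by the same GTPase and adaptors, and of 7 peroxisome genes tested 1 rose and 0 fell in edgeR (1 and 0 at an unadjusted p under 0.05 and in DESeq2). It was Acbd5, a peroxisomal tether to the endoplasmic reticulum, at 31.6 and 29.8 CPM in mock and 37.0 and 40.7 CPM in BMH21.

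Regulators of mitochondrial biogenesis were split, with 4 higher and 4 lower of 13 tested. Esrra, a nuclear receptor of energy metabolism, fell by 0.45, a call that held under all 11 alternatives, and the coactivator-related gene Pprc1 fell by 0.94 and lost its call without mock replicate 1. The coactivator gene Ppargc1a fell by 0.46, but its mock libraries differed (8.44 and 5.15 CPM, against 5.22 and 4.75 in BMH21) and without mock replicate 1 the log2 fold change was -0.05. Twnk, the mitochondrial DNA helicase, fell by 0.24. Nrf1, the factor whose motif lies upstream of Opa1, rose by 0.37, Gabpb1 by 0.32, Tfb1m by 0.27 and the mitochondrial DNA polymerase gene Polg by 0.10. Opa1 itself was not called. Gabpa, the ETS factor partner of Gabpb1, was at 83.3 and 80.1 CPM in mock and at 83.3 and 84.9 CPM in BMH21. Of these 8 calls only that of Esrra held with every single library left out. DESeq2 called 2 of the list higher and 2 lower, and the calls of Nrf1, Tfb1m, Ppargc1a and Twnk were lost in it.

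**Figure D5:**
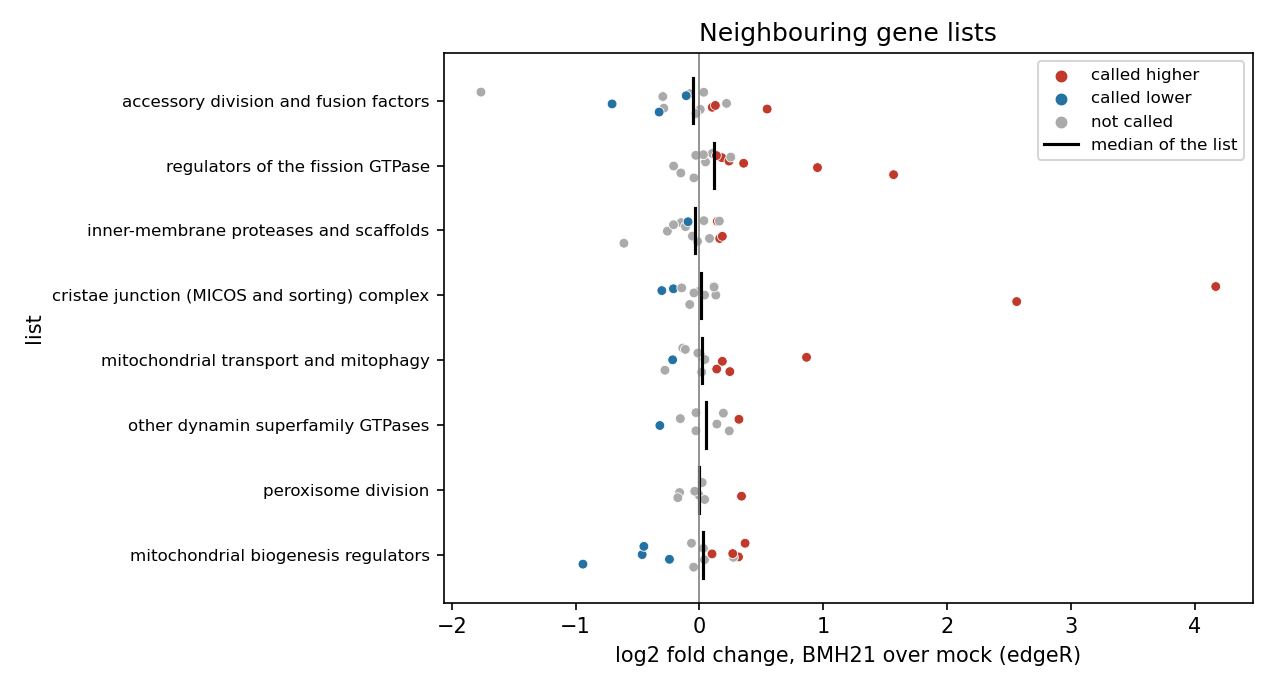
Log2 fold changes of BMH21 over mock for the tested genes of 8 lists around the core machinery; red points were called higher, blue lower and grey not called by edgeR, and black bars are list medians. The medians lie between -0.05 and 0.12, and the 2 points far to the right in the cristae list are the X-linked Apool and Apoo.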

How the data were processed

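Every test here starts from raw read counts of 15733 protein-coding genes in 4 libraries, as the authors deposited them. Per the submitters' processing notes the tools were fastp, STAR, SAMtools, DESeq2 and featureCounts, with mm10 as build; versions and settings are not given in the sources used here. The authors' size-factor-normalized counts (signal) were not used in tests. The authors' deposited log2 fold changes, their standard errors and Wald score, and p-values come from DESeq2 per the file headers and entered no result. A rerun of DESeq2 1.42.0 differed from those fold changes by at most 2.83e-05.

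Counts were tested in R 4.3.3 with edgeR 4.0.16, which was also run on simulated data. That simulation used the spread edgeR had estimated from these libraries, so it cannot show whether this spread is too small. FilterByExpr with a minimum count of 10 kept 13793 genes and removed 1940, sizes were scaled by TMM, and the quasi-likelihood model held only the group. SEs were taken as the absolute log2 fold change over the root of the F statistic, and intervals are 1.96 SE wide on either side. Both are approximate. P-values use a spread estimated for each gene and drawn toward that of other genes. They judge the group difference against the spread between these libraries, which may not be that between animals.

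Positions in the table matched GENCODE M21 (GRCm38) for 369 of 15670 genes found by identifier and for 0 of the 9 members, so coordinates and exon lengths come from GENCODE M21, 1-based. Alternatives were other scalings (RLE, upper quartile, TMM from autosomal genes), no filter, a stricter filter (50 counts in every library of at least 1 group), DESeq2, a replicate block and the removal of each library. The members and gene lists were chosen with earlier results of these data known. All 9 members were named, then from each list up to 4 called genes with the smallest p and those needed to account for counts of 5 or fewer. Genes named without a call (Ccnb1, Dnm2, Gabpa, Immt, Pink1 and Yme1l1), called genes beyond these limits and neighbours were named after their values were seen. Some genes of the lists are counted but not reported here by name.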

Additional observations from a re-analysis of the deposited data

How the results depend on the processing

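Over the 11 alternatives the log2 fold change of Dnm1l ran from 1.004 to 1.18 and that of Mief1 from 0.23 to 0.30, and Mff, Mief2, Mfn1, Opa1 and Oma1 were called in none (Oma1 could not be fitted under the stricter filter, which removed it). Opa1 changed sign under upper quartile scaling (-0.0105) and lay between -0.0237 and 0.0863 with 1 library left out. Of the 8 members other than Dnm1l, the number called higher was 1 under upper quartile scaling and 1 in DESeq2, in place of 2, and 1 to 2 with 1 library left out; the number called lower was 0 to 1 with 1 library left out. Of the 92 genes around them, 14 were called higher and 6 lower in DESeq2 in place of 23 and 12, 19 lower under upper quartile scaling, and 13 to 21 higher and 7 to 13 lower with 1 library left out. The cause of these losses was not tested. With 1 library left out, the lone sample of a group is assumed to vary like the other group. Replicate numbers are shared between groups, but same-numbered libraries did not deviate together (r = 0.01 across genes). With the replicate block 2189 genes were called higher and 1595 lower in place of 2282 and 1731, and the calls among the members did not change. With the longest transcript as length, levels in mock were 134 (Mfn2), 75.9 (Mff), 41.7 (Fis1), 17.8 (Mfn1), 17.3 (Mief1), 11.5 (Opa1), 8.64 (Dnm1l), 1.34 (Mief2) and 0.300 (Oma1) CPM per kb. Depth limits Oma1 and Mief2 most, with 18 to 28 and 94 to 158 counts per library.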
